A study of Mus musculus with 4 samples.

Results

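The SIBLING genes (small integrin-binding ligand, N-linked glycoproteins) Ibsp, Spp1, Dmp1 and Mepe were followed through 10 days of culture of a mouse cell line, the wild-type growth plate-like chondrocytes (GPLC). They were chosen by gene symbol alone and are 4 of the 24499 genes in the deposited expression table, which lists each symbol as 1 gene. Cells were sampled after 1, 3, 5 or 10 days in medium with fetal bovine serum, ascorbic acid and insulin, transferrin and selenium. There was no other treatment and no second genotype. Sequencing covered total RNA after removal of ribosomal RNA, extracted per the labels from sorted cells, with the sort not described. Day 1 had 3 libraries (numbers 1, 3 and 4) and days 3, 5 and 10 had 4 each (numbers 1 to 4), 15 in all, although the labels list 1 sample per day. Nothing in the labels says that libraries of a day were separate cultures, so each p-value here reflects library-to-library spread alone, and that spread may be technical. A cell line grown as a single culture type has no perichondrium, bone or marrow beside it, and this limits it as a model of the growth plate.

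SIBLING proteins are acidic, heavily phosphorylated glycoproteins secreted into the matrix of bone and dentin. The family is named for an RGD motif through which cells attach by integrins, and phosphorylation sets how its members bind calcium and crystal surfaces. Bone sialoprotein, the product of Ibsp, promotes the first deposition of hydroxyapatite, whereas phosphorylated osteopontin, the product of Spp1, slows crystal growth. Dentin matrix protein 1, the product of Dmp1, is best known from osteocytes and restrains the phosphate-lowering hormone FGF23, and Mepe encodes a phosphoglycoprotein whose acidic peptide blocks mineralization. In the growth plate, Ibsp and Spp1 are known from hypertrophic chondrocytes at the border with bone.

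The libraries held 12492537 to 18841621 reads in genes, and 1 read was worth 0.0523 to 0.0787 CPM, the deposited counts scaled to library size. By a chi-square of reads, the library numbered 2 was part of both of the most distant pairs on each of days 3, 5 and 10, and libraries 3 and 4 were the closest pair on days 1, 3 and 5. The summed level of 14 chondrocyte markers was 3111 CPM or more in every library, with Col2a1 alone at 1262 CPM or more. Single markers ranged widely, on day 1 from Prg4 at 0.792 CPM or less to Col2a1 at 3024 CPM or more. On day 1 the chondrocyte sum was 5013 to 5761 CPM. That of the osteoblast and osteocyte list, mostly Col1a1, was 9001 to 12570 CPM. Of 20 macrophage and osteoclast markers, 10 had no read on day 10. Their summed level was 13 to 14.3 CPM on day 1, 16.2 to 26.3 CPM on day 3, 21.3 to 37.7 CPM on day 5 and 21.8 to 51.9 CPM on day 10, most of it from Ctsk and Cd68. Among the macrophage genes Tyrobp, Adgre1, Aif1, C1qa and Itgam had 0 reads in all 15 libraries. Others were detected at low levels, with Lyz2 at up to 1.33 CPM, Laptm5 at up to 1.07 CPM and Csf1r at up to 0.628 CPM. The summed level of 8 endothelial markers was 0.904 CPM or less in every library. In bulk RNA, fewer cells of a type and less RNA per cell cannot be told apart, and that holds for every level below.

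The 4 genes lie in 1 cluster on chromosome 5, all on the plus strand (GRCm38, GENCODE M21). Dmp1 covers 104202613 to 104214102 with 6 exons, Ibsp 104299171 to 104311469 with 7 exons, Mepe 104325329 to 104338611 with 3 exons and Spp1 104435118 to 104441050 with 8 exon blocks. Of the exon bases of Spp1, 309 overlap Gm42793, a gene model on the same strand that is not in the table, so reads of the pair cannot be told apart there. The fifth gene of the family, Dspp, which encodes dentin sialophosphoprotein, sits at the upstream end of the cluster and had 0 reads in all 15 libraries.

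The sequence just before each start site is shown because these neighbours on 1 strand differ so widely in level. RefSeq (GRCm38.p6) lists 2 starts for Dmp1 and 2 for Spp1, and the start nearer to the GENCODE gene start is shown. The annotations differ for Ibsp, whose RefSeq start is 104299287 and whose GENCODE gene starts at 104299171. The end of the Ibsp window, with its ATTGG and TTTATA, thus lies inside the gene by GENCODE. Each line gives the 250 bases before the start, 5′ to 3′ on the plus strand, with CCAAT or its reverse complement ATTGG in capitals. The windows are chr5:104202367-104202616 for Dmp1, chr5:104299037-104299286 for Ibsp, chr5:104325079-104325328 for Mepe and chr5:104434861-104435110 for Spp1.
Dmp1: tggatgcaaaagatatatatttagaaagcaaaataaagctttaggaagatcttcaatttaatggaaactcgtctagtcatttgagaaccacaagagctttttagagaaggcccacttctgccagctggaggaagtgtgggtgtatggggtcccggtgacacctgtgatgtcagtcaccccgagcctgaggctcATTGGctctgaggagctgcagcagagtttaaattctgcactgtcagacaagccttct
Ibsp: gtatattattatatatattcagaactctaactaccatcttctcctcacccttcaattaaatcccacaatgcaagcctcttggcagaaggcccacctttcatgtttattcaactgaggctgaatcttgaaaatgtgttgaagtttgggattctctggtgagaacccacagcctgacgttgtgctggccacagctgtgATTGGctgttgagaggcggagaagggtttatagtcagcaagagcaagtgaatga
Mepe: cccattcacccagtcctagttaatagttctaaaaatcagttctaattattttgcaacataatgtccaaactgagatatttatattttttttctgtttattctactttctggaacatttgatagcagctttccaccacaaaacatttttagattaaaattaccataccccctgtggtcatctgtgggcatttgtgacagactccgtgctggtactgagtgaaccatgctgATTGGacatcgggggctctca
Spp1: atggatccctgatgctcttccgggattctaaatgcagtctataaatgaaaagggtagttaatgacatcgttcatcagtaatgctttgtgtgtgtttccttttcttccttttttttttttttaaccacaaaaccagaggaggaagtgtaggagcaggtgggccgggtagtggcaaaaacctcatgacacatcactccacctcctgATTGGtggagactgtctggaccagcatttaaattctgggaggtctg
Each window held 1 ATTGG, with its first base 57 bases before the start of Dmp1, 54 before Ibsp, 21 before Mepe and 46 before Spp1. CCAAT on either strand occurs in 33.8% of the 32851 RefSeq windows of this length. TTTAAA lay 31 bases before the start of Dmp1 and 20 before that of Spp1 and occurs in 12.1% of windows. TATAAA or its reverse TTTATA lay 28 bases before the start of Ibsp, 173 before Mepe and 211 before Spp1, against 12.4% of windows. The core bound by RUNX factors, TGTGGT or ACCACA, was found at 164 bases for Dmp1, at 80 and 118 bases for Mepe and at 128 bases for Spp1, but not in the Ibsp window, against 14.0% of windows. The letters searched were picked after the sequences had been seen, and a match is a description of letters, not a binding site.

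**Figure D1:**
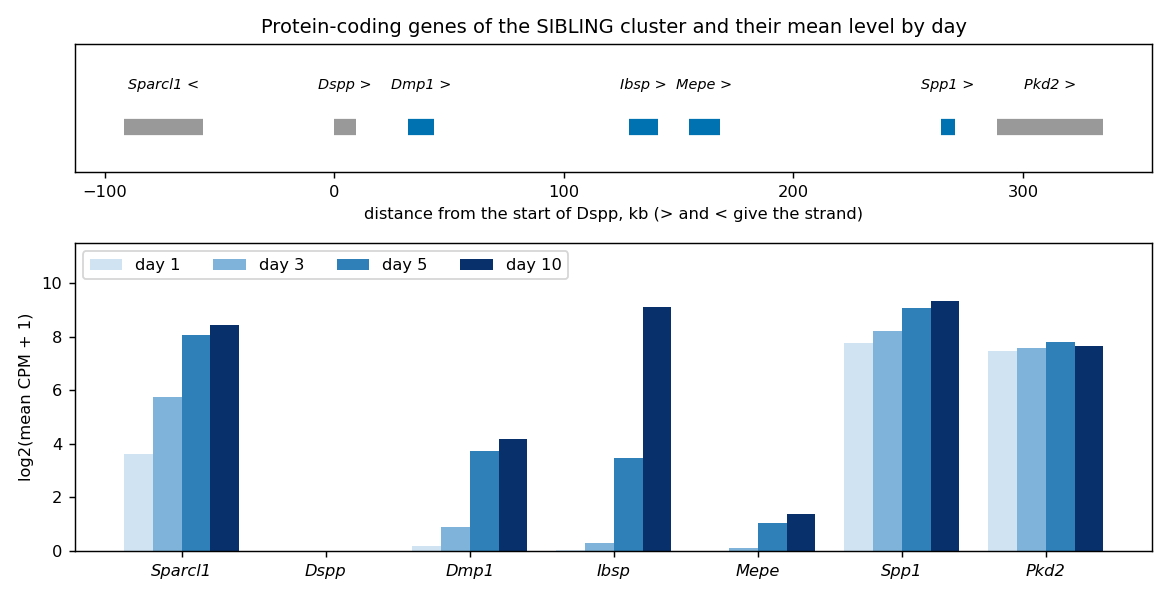
Upper panel: protein-coding genes of the cluster drawn to scale by distance in kb from the start of Dspp, members in blue and neighbours in grey. Lower panel: log2 of the mean CPM of each day plus 1, with 1 bar per day. Dspp has no bar on any day, Pkd2 changes least, and the 4 members and Sparcl1 are highest on day 10.

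Ibsp was nearly silent at the start and abundant in some libraries by day 10, with the highest increase among the genes tested in the fit of all 15 libraries. It was at 0.0609, 0 and 0 CPM in libraries 1, 3 and 4 of day 1, and at 0.221, 0.630, 0.0744 and 0 CPM in libraries 1 to 4 of day 3. Day 5 had 11.2, 26.8, 1.04 and 1.02 CPM, and day 10 had 324, 1824, 35.5 and 19.7 CPM. Every day 5 library was above every library of days 1 and 3. On day 10 the libraries 1, 2 and 3 were above all of day 5, while library 4, at 19.7 CPM, was below library 2 of day 5. The day means were 0.0203 ± 0.0352 CPM (SD, n = 3), 0.231 ± 0.281, 10.03 ± 12.2 and 551 ± 860 CPM (SD, n = 4 each), so the SD exceeded the mean on each day.

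All differences of Ibsp are given as log2(CPM + 1), which understates the change of a gene near 0, and adjusted p-values come from limma with Benjamini-Hochberg adjustment over the 12109 genes with a mean of at least 1 CPM. Day 10 was higher than day 1 by 7.16 ± 1.21 (log2, SE; adjusted p = 0.00021), in 4 of 4 libraries. In the fit of all 15 libraries this was the highest of all 12109 differences, with libraries 1 and 2 of day 10 (324 and 1824 CPM) far above libraries 3 and 4 (35.5 and 19.7 CPM). Without the libraries numbered 2 it was 5.94 ± 0.86 (adjusted p = 0.00011). The difference between day 10 and day 5 was 4.57 ± 1.12 (adjusted p = 0.027), the second highest of that comparison. That call was lost without library 3 of day 5 (4.04, adjusted p = 0.098), without library 4 of day 5 (4.04, adjusted p = 0.095) and without library 1 of day 10 (4.19, adjusted p = 0.062), and it remained without the libraries numbered 2 (4.09 ± 0.86, adjusted p = 0.015). The call was also lost without the filter on low values (adjusted p = 0.10), with only the libraries of days 10 and 5 in the fit (adjusted p = 0.16), with libraries 3 and 4 of each day averaged (adjusted p = 0.10) and with libraries 1 and 2 alone (adjusted p = 0.075). With limma, day 5 against day 1 missed the threshold at 2.58 ± 1.21 (adjusted p = 0.088), although edgeR on the recovered reads called it (adjusted p = 0.026). In pooled reads Ibsp had 1 read on day 1, 13 on day 3, 699 on day 5 and 37840 on day 10. With the reads scaled as the deposited CPM are, the ratio of day 10 to day 5 was 56.3 (95% interval 52.2 to 60.7), and that of day 5 to day 3 was 46.0 (26.7 to 86.7). These intervals cover counting error only. Library 2 gave 31778 of the 37840 day 10 reads and 466 of the 699 day 5 reads, so the pooled ratios rest mostly on it.

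Spp1 was abundant from the first day and changed far less. Its levels were 303, 177 and 167 CPM in libraries 1, 3 and 4 of day 1, and 289.9, 467, 222 and 227 CPM in libraries 1 to 4 of day 3. Day 5 had 499.7, 909.7, 362 and 382 CPM, and day 10 had 510.4, 749, 719.9 and 604 CPM. All libraries of days 5 and 10 were above all of day 1, while day 3 overlapped both its neighbours and day 10 lay inside the range of day 5. The day means were 216 ± 75.5 CPM (SD, n = 3), 302 ± 115, 538 ± 255 and 646 ± 109.9 CPM (SD, n = 4 each). Spp1 rose by 1.27 ± 0.32 (log2) for day 5 against day 1 (limma, adjusted p = 0.0043) and by 1.62 ± 0.32 for day 10 against day 1 (adjusted p = 0.00074). The differences for day 5 against day 3 (0.80 ± 0.30, adjusted p = 0.11) and day 10 against day 5 (0.35 ± 0.30, adjusted p = 0.50) did not pass. Without the libraries numbered 2, day 5 against day 3 passed at 0.74 ± 0.22 (adjusted p = 0.049).

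Dmp1 was near 0 at first and rose by day 5. It was at 0.366, 0 and 0.0619 CPM in libraries 1, 3 and 4 of day 1, and at 0.497, 2.20, 0.372 and 0.427 CPM in libraries 1 to 4 of day 3. Day 5 had 9.01, 27.2, 5.55 and 7.61 CPM, and day 10 had 8.61, 40.1, 9.05 and 10.5 CPM. Every library of days 5 and 10 was above every library of days 1 and 3, whereas days 10 and 5 overlapped. The lowest day 3 library, at 0.372 CPM (5 reads), was barely above the highest day 1 library, at 0.366 CPM (6 reads). Day 3 against day 1 was not called (0.63 ± 0.52, limma, adjusted p = 0.39). The mean levels were 0.142 ± 0.196 CPM on day 1 (SD, n = 3), 0.875 ± 0.887 on day 3, 12.3 ± 10.004 on day 5 and 17.1 ± 15.4 on day 10 (SD, n = 4 each). Dmp1 rose by 2.68 ± 0.48 (log2) for day 5 against day 3 (limma, adjusted p = 0.0049), the 9th highest of 12109 differences, and by 3.69 ± 0.52 for day 10 against day 1 (adjusted p = 4.8e-05). The call for day 5 against day 3 was lost with libraries 3 and 4 of each day averaged (2.77, adjusted p = 0.078) and with libraries 1 and 2 alone (2.94, adjusted p = 0.65). For day 10 against day 5 the difference was 0.38 ± 0.48 (adjusted p = 0.67), and it turned to -0.12 without library 2 of day 10. Pooled reads were 7 on day 1, 48 on day 3, 850 on day 5 and 1148 on day 10. With the reads scaled as the deposited CPM are, day 5 was 15.1 times day 3 (95% interval 11.3 to 20.7) and day 10 was 1.4 times day 5 (1.28 to 1.54).

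Mepe was not detected at the start and stayed low. It had 0 reads in all 3 libraries of day 1, and a floor of 3 reads over the group is a level of 0.0645 CPM (the exact Poisson interval reaches 0.0794 CPM). Libraries 1 to 4 had 0.166, 0.0787, 0.0744 and 0 CPM on day 3, 1.63, 1.90, 0.244 and 0.419 CPM on day 5, and 1.52, 1.61, 2.20 and 0.979 CPM on day 10. The libraries of days 5 and 10 were all above those of days 1 and 3, and days 5 and 10 overlapped. Against a floor of 3 reads over day 1, the level of day 5 was at least 16.6-fold higher and that of day 10 at least 25.3-fold higher, with the levels of days 5 and 10 taken as measured, without their counting error. Mepe was below the mean of 1 CPM needed for limma and was tested alone with an exact two-sided permutation test, with the smaller tail doubled. The difference for day 5 against day 3 was 0.83 (log2; exact p = 0.0286, the smallest that 4 against 4 libraries allow). For day 10 against day 1 it was 1.34 and for day 5 against day 1 it was 0.94 (exact p = 0.0571 for both). This is the smallest p that 4 against 3 libraries allow when the tail is doubled, so neither could fall under 0.05 in this form of the test. After adjustment over the 5 comparisons of days, each of these exact p-values was 0.0952. With the tail doubled, the adjusted value could not fall below 0.0571 whatever the data. This form of the test can thus neither call nor dismiss a change of Mepe.

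**Figure D2:**
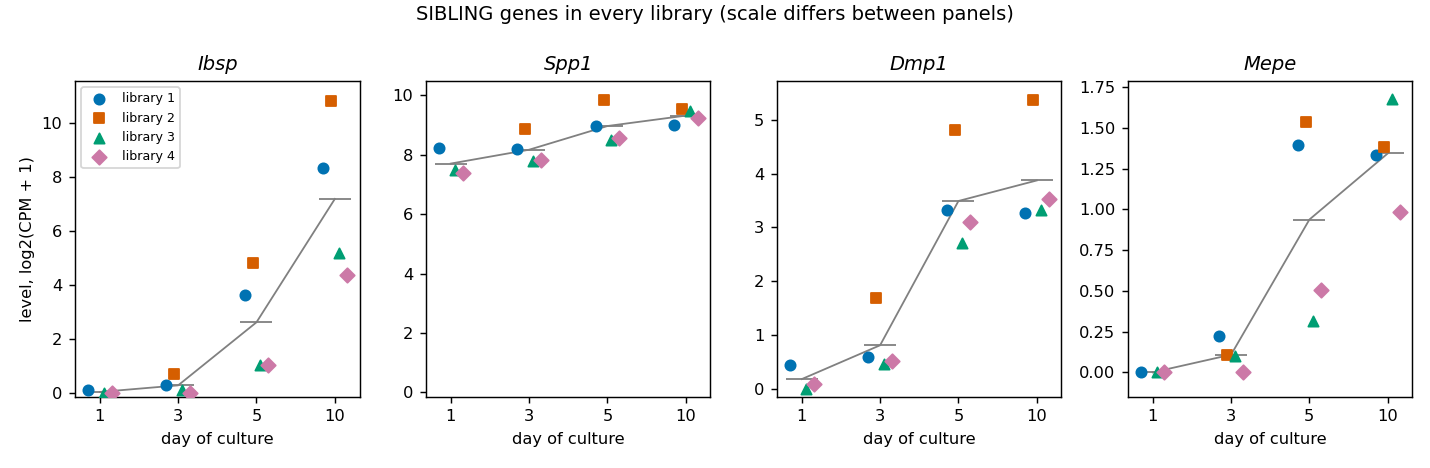
Level of each gene, log2(CPM + 1), in every library (points, shape and colour by library number) against day of culture, with the mean of each day as a grey bar. Library 2 of day 10 has the highest Ibsp level at 1824 CPM, and for Dmp1 the libraries numbered 2 lie above the others of days 3, 5 and 10.

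The number of members called differed by comparison. For day 3 against day 1, 0 of the 3 members in the fit were called by limma, where 31.8% of all genes were, none had an unadjusted p under 0.05, and edgeR called 0 while DESeq2 called Dmp1 (adjusted p = 0.043). For day 5 against day 1, Spp1 and Dmp1 were called higher, where 50.0% of genes were called in either direction and 25.2% higher. For day 10 against day 1, Ibsp, Spp1 and Dmp1 were all called higher, against 49.4% in either direction and 24.3% higher. For day 5 against day 3 only Dmp1 was called, against 9.13% in either direction and 5.1% higher. For day 10 against day 5 only Ibsp was called, against 5.77% in either direction and 3.75% higher. The comparisons that use day 1 share its 3 libraries, and those that use day 5 share its 4.

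The step from day 5 to day 10 was also set against the step from day 3 to day 5 within the same fit, which compares the size of the steps and not their rate, since the later one spans more days. For Dmp1 the later step minus the earlier was -2.30 ± 0.84 (log2; limma, adjusted p = 0.16), for Ibsp it was 2.23 ± 1.94 (adjusted p = 0.58) and for Spp1 it was -0.45 ± 0.51 (adjusted p = 0.69). None passed, and 1.77% of all genes did. At an unadjusted p under 0.05 only Dmp1 passed (0.015). The difference for Dmp1 passed in 5 alternatives. These were without the libraries numbered 2 (-2.20 ± 0.33, adjusted p = 0.0099), without library 2 of day 10 (-2.80, adjusted p = 0.045), with libraries 3 and 4 alone (-1.90, adjusted p = 0.012), with array weights (-1.90, adjusted p = 0.0024) and with the library number as a block (-2.30, adjusted p = 0.0058). That for Ibsp passed in 2, with array weights (5.36, adjusted p = 0.00034) and with libraries 3 and 4 alone (2.79, adjusted p = 0.011), and was 2.33 ± 1.49 (adjusted p = 0.43) without the libraries numbered 2. The log2(CPM + 1) scale understates the earlier step of Ibsp, which was near 0 on day 3 (0.0744 and 0 CPM in libraries 3 and 4). In pooled reads, mostly from library 2, Ibsp rose 46.0 times from day 3 to day 5 (interval 26.7 to 86.7). From day 5 to day 10 it rose 56.3 times (52.2 to 60.7). These intervals overlap, so a larger later step of Ibsp as a ratio was not shown.

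**Figure D3:**
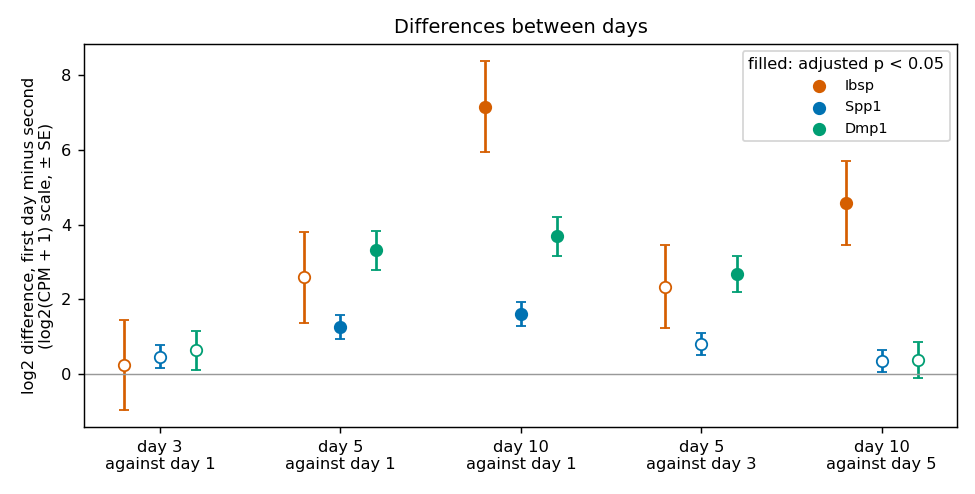
Difference between days for Ibsp, Spp1 and Dmp1 on the log2(CPM + 1) scale, the first-named day minus the second, with its SE. Filled points passed an adjusted p of 0.05 (limma), among them Ibsp at 7.16 for day 10 against day 1 and Dmp1 at 2.68 for day 5 against day 3.

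The libraries of 1 day differed by very different amounts from gene to gene. On day 10 the highest library of Ibsp was 92.8 times the lowest, against 4.66 times for Dmp1, 2.24 times for Mepe and 1.47 times for Spp1. On day 5 this ratio was 26.4 for Ibsp, 7.80 for Mepe, 4.90 for Dmp1 and 2.51 for Spp1. Library 2 held the highest Ibsp, Spp1 and Dmp1 on each of days 3, 5 and 10, but the highest Mepe only on day 5. Over all 15 libraries, Pearson's r of log2(CPM + 1) was 0.925 for Spp1 with Dmp1, 0.878 for Dmp1 with Mepe and 0.769 for Ibsp with Spp1, the lowest of the 6 pairs. These values are descriptive, since libraries of a day share that day.

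Levels of different genes were compared per kb of exon (2068 bases for Ibsp, 1648 for Spp1, 2764 for Dmp1 and 1682 for Mepe). On day 3 Spp1 stood at 183 ± 69.6 CPM per kb and the other 3 genes each averaged 0.317 or less. On day 5 the order was Spp1 at 327 ± 155, Ibsp at 4.85 ± 5.90, Dmp1 at 4.46 ± 3.62 and Mepe at 0.624 ± 0.499 CPM per kb, with Ibsp and Dmp1 inside each other's spread. On day 10 the level per kb was 392 ± 66.7 CPM per kb for Spp1, 266 ± 416 for Ibsp, 6.18 ± 5.56 for Dmp1 and 0.937 ± 0.297 for Mepe (SD, n = 4 each). Ibsp and Spp1 overlapped there, and Ibsp was above Spp1 only in library 2. As a share of the summed level of the 4 genes per kb, Spp1 averaged 99.96% on day 1, 99.8% on day 3, 97.5% on day 5 (95.8 to 98.8%) and 72.8% on day 10 (33.6 to 96.3%). Ibsp made up 1.11% on day 5 and 26.2% on day 10 (2.5 to 65.2%), so osteopontin RNA was dominant in 3 of the 4 day 10 libraries.

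**Figure D4:**
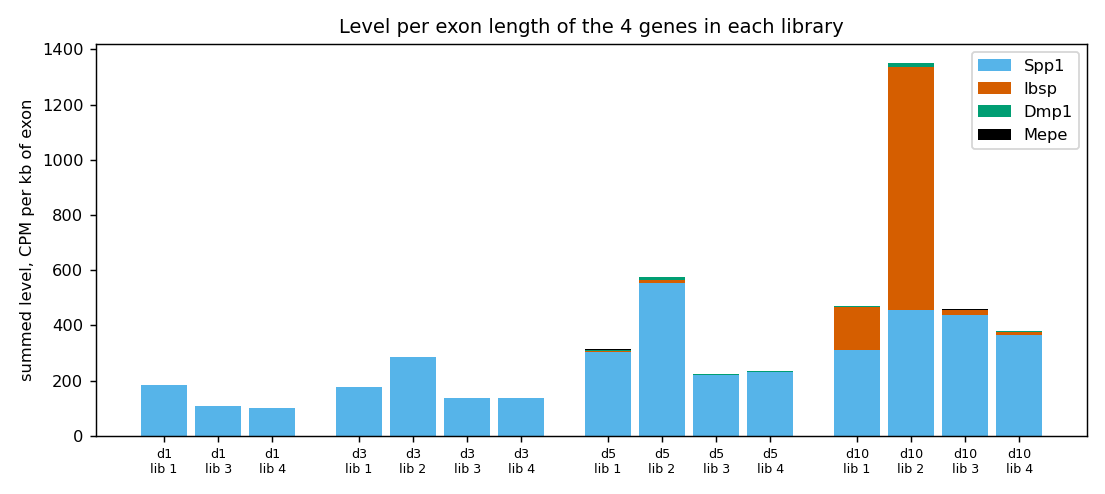
Summed level of the 4 genes in CPM per kb of exon, stacked by gene, in each library (d, day; lib, library number). Spp1 makes up nearly all of the sum up to day 5, and Ibsp makes up 65.2% of it in library 2 of day 10.

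Among the other genes of the cluster, Sparcl1, a SPARC-like matrix gene on the opposite strand upstream of Dspp, also rose. Its means were 11.4, 52.5, 266 and 348 CPM on days 1, 3, 5 and 10, and day 10 against day 1 was 4.75 ± 0.42 (log2; limma, adjusted p = 7.4e-07). Its order within day 10 differed from that of Ibsp, with 247, 157, 537 and 449 CPM in libraries 1 to 4. Pkd2, the polycystin gene downstream of Spp1, had means of 177, 191, 225 and 200.2 CPM, and its day 10 to day 1 difference was 0.17 (log2; adjusted p = 0.24). Of the 6 tested genes of the cluster list other than the members, 3 rose and 0 fell for day 10 against day 1, against 49.4% of all genes called and 24.3% called higher. The median was 0.40 (log2), against -0.01 over all genes.

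Regulators of bone matrix genes were mixed. Of 13 tested, 4 rose and 2 fell for day 10 against day 1, which is near the background of 49.4% of all genes called and 24.3% called higher. The median difference was 0.28 (log2), against -0.01 over all genes. For day 5 against day 1, 1 rose and 6 fell, where 50.0% of all genes were called. Sp7, which encodes osterix, the factor needed for osteoblast formation, was at 1.58, 3.6 and 3.28 CPM in the day 1 libraries. It had 1.38, 1.1, 0.297 and 0.712 CPM on day 3, 6.02, 5.59, 0.305 and 0.659 CPM on day 5 and 76.3, 214, 11.6 and 12.4 CPM on day 10. All 4 libraries of day 10 lay above every earlier library, and Sp7 rose for day 10 against day 5 by 3.69 ± 0.78 (log2; limma, adjusted p = 0.014). Runx2, the factor that directs osteoblast and hypertrophic differentiation, had means of 205, 80.0, 113 and 267 CPM on days 1, 3, 5 and 10. It fell for day 3 against day 1 (-1.35) and rose for day 10 against day 5 (1.14 ± 0.25, adjusted p = 0.017), but was not called for day 10 against day 1 (0.28, adjusted p = 0.41). Dlx3, a homeobox factor, had means of 19.7 CPM on day 1, 2.72 on day 3 and 3.93 on day 5 and single libraries of 18.2, 70.9, 4.92 and 8.13 CPM on day 10, with no call for day 10 against day 1 (-0.29, adjusted p = 0.71). Msx2 (-1.52 ± 0.18, adjusted p = 1.3e-05) and Sox9 (-1.34, adjusted p = 0.0094) fell for day 10 against day 1, and both stand among regulators of osteoblast or chondrocyte fate. Libraries 1 and 2 of day 10 were higher than libraries 3 and 4 for Sp7, Runx2 and Dlx3, as they were for Ibsp. Without the libraries numbered 2, 5 of the 13 rose and 4 fell.

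Most of the tested enzymes that modify SIBLING proteins rose. Of 15 listed 9 were tested, and 8 rose and 0 fell for day 10 against day 1, against 49.4% of all genes called and 24.3% called higher. The median was 2.39 (log2) against -0.01 over all genes, and the count was again 8 and 0 without the libraries numbered 2. Mmp12, among the 8, reached the mean of 1 CPM only with day 10 included (day means 0.126, 0.302, 0.395 and 4.27 CPM), so the filter favoured its rise. Of the untested genes, Tll1 was lower on day 10 (0.366 CPM or less) than on day 1 (0.791 to 1.46 CPM), and the others were near 0 on all days. Fam20c, the secretory-pathway kinase that phosphorylates SIBLING proteins, was at 45.2, 49.1, 42.7 and 63.6 CPM on day 10, against 8.77, 9.21 and 8.04 CPM on day 1. The groups did not overlap, and the difference was 2.39 ± 0.13 (log2; limma, adjusted p = 1.8e-08). Fam20a, its pseudokinase partner, rose by 2.73 (adjusted p = 5.8e-05). The crosslinking enzymes Tgm2 (3.84 ± 0.21, adjusted p = 1.7e-08) and F13a1 (5.87 ± 0.40, adjusted p = 8.4e-08), which join osteopontin to itself and to other matrix proteins, rose as well. Bmp1, the protease that cuts dentin matrix protein 1, rose by 1.26 (adjusted p = 0.0003).

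Phex encodes the peptidase that degrades the mineral-blocking acidic peptides of Mepe and osteopontin. It was at 15.5, 58.4, 13.6 and 5.95 CPM on day 10, against 0.244, 0.288 and 0.433 CPM on day 1, and rose by 3.75 ± 0.50 (log2; limma, adjusted p = 2.8e-05). Alpl, the phosphatase that removes pyrophosphate and can dephosphorylate osteopontin, was the exception among the 9. Its day 10 libraries had 297, 664, 51.7 and 48.2 CPM, against 21.5, 49.1 and 46.0 CPM on day 1, so library 4 of day 10 lay within the day 1 range. It was lower on day 3 (mean 2.70 CPM) and day 5 (mean 8.21 CPM), rose for day 10 against day 5 by 4.69 ± 0.82 (adjusted p = 0.0042), and for day 10 against day 1 was 2.0 ± 0.88 (adjusted p = 0.071).

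Receptors and binding partners moved in both directions. Of 15 listed genes 12 were tested, and 6 rose and 1 fell for day 10 against day 1, against 49.4% of all genes called and 24.3% called higher. The median was 0.88 (log2), and without the libraries numbered 2 the count was 7 and 2 with a median of 0.64. The vitronectin receptor that bone sialoprotein and osteopontin share is built from Itgav and Itgb3. Itgav fell by 0.47 on the log2 scale (SE 0.17; limma, adjusted p = 0.028), and Itgb3, at a mean of 4.68 CPM on day 10 and 4.54 CPM on day 1, differed by 0.02 ± 0.25 (adjusted p = 0.95). Itgb5, another beta chain that pairs with Itgav, rose by 1.20 ± 0.19 (adjusted p = 0.00015). Itga9, a chain that binds thrombin-cut osteopontin, was at 13.5, 19.4, 9.21 and 9.41 CPM on day 10, against 0.731, 0.504 and 0.742 CPM on day 1, and rose by 3.01 ± 0.38 (adjusted p = 1.7e-05). Cd44, an osteopontin receptor, was not called (-0.61, adjusted p = 0.12). Of the metalloproteinases known to pair with single SIBLING proteins, Mmp2, the partner of bone sialoprotein, rose by 1.65 ± 0.14 (adjusted p = 7.6e-07). Mmp3, the partner of osteopontin, rose by 2.18 ± 0.24 (adjusted p = 6e-06), and Mmp9, the partner of dentin matrix protein 1, was at 1.21 CPM or less in every library and was not tested. Mmp3 had day means of 0.0446, 0.170, 0.248 and 3.90 CPM, so it passed the filter only with day 10 included, which favoured its rise.

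Of 20 other mineralized matrix genes listed 14 were tested, and 10 rose and 0 fell for day 10 against day 1, against 49.4% of all genes called and 24.3% called higher. The median was 1.64 (log2). Without the libraries numbered 2 the count was 9 and 1, and the median 1.23. Bglap, Bglap2, Ifitm5 and Pdpn, all among the 10, reached the mean of 1 CPM only with day 10 included, so the filter favoured their rise. Phospho1, the phosphatase of matrix vesicles, was at 161, 592, 75.3 and 111 CPM on day 10, against 4.26, 3.96 and 5.13 CPM on day 1, and rose by 4.96 ± 0.46 (limma, adjusted p = 1.3e-06). Smpd3, a sphingomyelinase needed for skeletal mineralization, had 331, 907, 109.8 and 146 CPM on day 10 and rose by 3.38 ± 0.71 (adjusted p = 0.0012). Bglap2, an osteocalcin gene, had 8.23, 29.3, 1.26 and 1.43 CPM on day 10 and 0 in every library of day 1, and rose (adjusted p = 0.003). Its near-identical copies make the split of reads among osteocalcin genes uncertain. Mgp, which encodes the mineralization inhibitor matrix Gla protein, rose by 5.11 ± 0.42 (adjusted p = 4.2e-07), while Col1a1 was not called (1.06, adjusted p = 0.11). The day means of Mgp were 2.36, 45.6, 232 and 118 CPM on days 1, 3, 5 and 10, highest on day 5. For day 10 against day 5, 3 of the 14 genes rose and 1, Enpp1, fell (-0.89), against 5.77% of all genes called and 3.75% called higher.

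Growth plate and cell type lists gave mixed counts for day 10 against day 1, where 49.4% of all genes were called and 24.3% called higher. Of 12 prehypertrophic and hypertrophic genes other than the members, 6 rose and 1 fell, with a median of 2.20 (log2), which became 7 and 2 with a median of 1.51 without the libraries numbered 2 and a median of 1.02 with libraries 3 and 4 alone. Pth1r, the receptor for PTHrP, rose by 6.01 ± 0.53, and its day 10 libraries had 204, 475, 83.7 and 106 CPM. Mmp13, the collagenase of terminal chondrocytes, rose by 3.75 ± 0.48 and had 20.7, 29.6, 11.8 and 3.46 CPM. Mmp13 and Ihh, both among the 6 that rose, reached the mean of 1 CPM only with day 10 included, so the filter favoured their rise. Col10a1, the hypertrophic collagen, fell by 2.82 on the log2 scale (SE 0.58; limma, adjusted p = 0.00096), with 8.11, 7.63, 51.2 and 59.6 CPM on day 10, against 100.2, 203 and 189 CPM on day 1. Within day 10, Col10a1 was higher in libraries 3 and 4 and Ibsp in libraries 1 and 2. Of 14 listed osteoblast and osteocyte markers 10 were tested, and 7 rose and 1 fell, with a median of 1.99. Without the libraries numbered 2 the count was 6 and 1, with a median of 1.27. Among those that rose, Bglap, Bglap2, Ifitm5 and Pdpn reached the mean of 1 CPM only with day 10 included, so the filter favoured their rise. Bglap, for example, had day means of 0.024, 0.0473, 0.302 and 6.80 CPM. The summed level of all 14 listed markers in single libraries was 8523 to 62853 CPM on day 10, against 9001 to 12570 CPM on day 1. Most of this sum was Col1a1, at 7793 to 61215 CPM on day 10, which was not called (limma, adjusted p = 0.11). Of 13 chondrocyte markers tested, 4 rose and 2 fell, with a median of 0.16. Without the libraries numbered 2, 6 rose and 2 fell with a median of 0.54, and with libraries 3 and 4 alone 8 rose and 2 fell with a median of 0.85. For day 3 against day 1, 9 of them rose and 1 fell, where 31.8% of all genes were called. Of 2 macrophage and osteoclast markers tested, Ctsk rose (1.49), of 4 adipocyte markers 2 rose and 1 fell, and no endothelial marker reached the level needed. The part of these markers in the levels of the SIBLING genes was not tested.

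**Figure D5:**
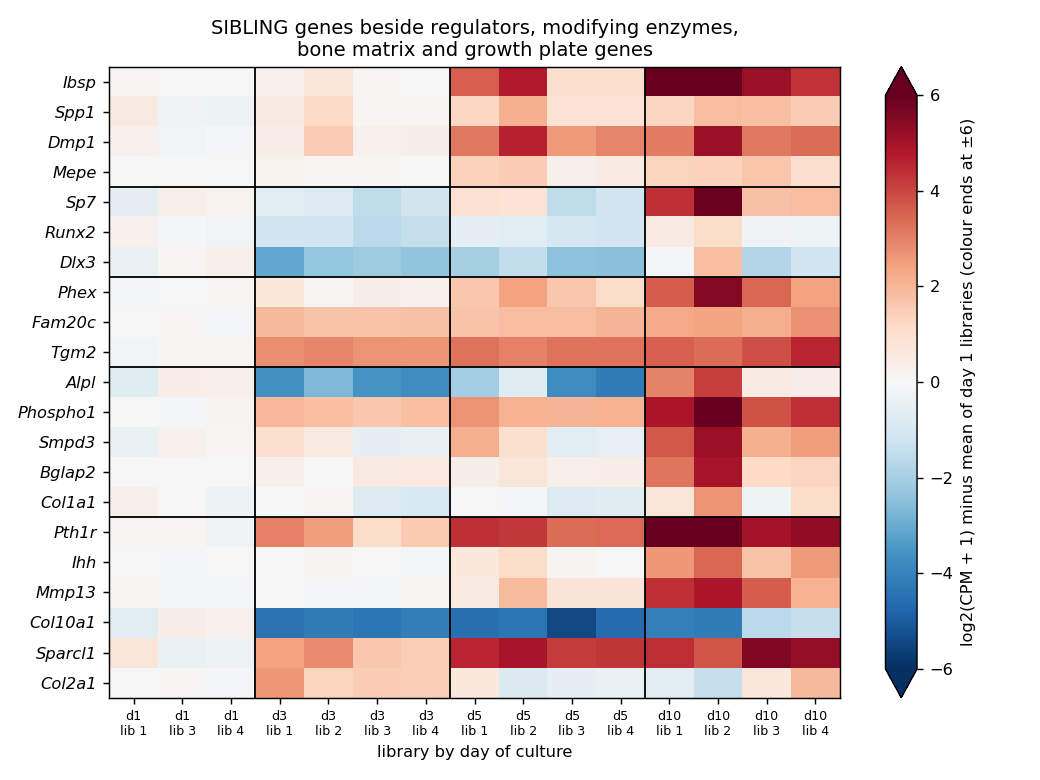
Colour gives log2(CPM + 1) minus the mean of the day 1 libraries for the 4 members, regulators, modifying enzymes, mineralized matrix genes and growth plate genes (top to bottom, separated by lines) in each library (d, day; lib, library number). Ibsp, Sp7, Alpl and Phospho1 are deepest in libraries 1 and 2 of day 10, whereas Fam20c and Tgm2 are already raised on day 3 and Col10a1 is lower than on day 1 throughout.

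The genes whose levels were most alike differed between members, by Pearson's r of log2(CPM + 1) over 15 libraries and as a description only. For Ibsp they were Dio2 (r = 0.994), which encodes the deiodinase that activates thyroid hormone, the metalloprotease gene Adam19 (0.976), the retinol carrier gene Rbp4 (0.975), the transcription factor gene Egr3 (0.975) and Cdh11, the osteoblast cadherin (0.974). Dio2 had day means of 0, 0.210 and 1.67 CPM on days 1, 3 and 5, and 22.8, 64.3, 5.44 and 4.29 CPM in libraries 1 to 4 of day 10. Dio2 and Egr3 (day means 0.235, 0.418, 1.96 and 6.28 CPM) reached the mean of 1 CPM only with day 10 included. The filter thus favoured their likeness to Ibsp. For Dmp1 they included Errfi1 (0.986), an inhibitor of the EGF receptor, then Selenbp1 (0.964), Larp6 (0.960), which encodes a protein that binds collagen mRNA, and B4galt1 (0.958). Errfi1 had day means of 5.19, 8.66, 35.0 and 46.7 CPM on days 1, 3, 5 and 10. For Spp1 they included the potassium channel subunit gene Kcnab1 (0.963), the iron regulator gene Hfe (0.957), Parp9 (0.956) and the viral RNA sensor gene Ifih1 (0.946).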

How the data were processed

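Total RNA libraries were made with KAPA HyperPrep and RiboErase, per the labels' protocols. STAR, featureCounts, edgeR and GRCm38 are named in the submitters' processing notes. Tool versions, gene annotation and strand setting are not given in the sources. The authors deposited a normalized signal per gene symbol. All values of a column (100%) were whole multiples, at a tolerance of 0.001, of its smallest, taken as 1 read, and the step equalled CPM divided by edgeR's TMM factor, so the deposited signal was used as CPM. Columns were assigned to days by the day in their names, and 0 columns were left unused.

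Levels were tested as log2(CPM + 1) with limma 3.58.1 in R 4.3.3, with a trended prior, all 15 libraries in 1 fit without library number as a term, Benjamini-Hochberg adjustment and a threshold of 0.05, over the 12109 genes with a mean of at least 1 CPM over the 4 day means. Mepe was below this filter and had an exact permutation test. The script was tested on simulated data. Ratios of pooled reads use library sizes multiplied by the TMM factor. They have exact conditional intervals at 95%, which cover counting error only because the reads carry no molecular identifiers. Genes were placed with GENCODE M21, and start sites come from RefSeq.

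The members, the 11 gene lists and the tests were chosen with earlier results of these data known. Named genes were the members, up to 3 highest and 3 lowest called genes of each list for day 10 against day 1, genes whose role is described, the cluster neighbours and the 5 genes most correlated with each member. Some genes that these rules name are not reported here. Alternatives were pseudocounts of 0.25 and 5, no filter or 5 CPM, no TMM factor, edgeR 4.0.16 and DESeq2 1.42.0 on the recovered reads, 2 days only, library number as a replicate block, averaged libraries 3 and 4, array weights and each library left out. Runs without the libraries numbered 2, and with libraries 3 and 4 or 1 and 2 alone, and the contrast between steps were added after the data were seen.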

Additional observations from a re-analysis of the deposited data

Results flagged for a closer look

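Among the 12 sets of 4 libraries (each gene on days 3, 5 and 10), 4 had 1 library whose gap to its nearest neighbour exceeded Dixon's 95% critical value as a share of the whole range. Each of them was the library numbered 2. Chance gives about 1 in 20 for a single set of normally distributed values. The 12 sets are not separate draws, since the 4 genes are correlated and were read in the same libraries, so that rate is no yardstick for their count. Ibsp was at 1824 CPM in library 2 of day 10, against 19.7 to 324 CPM in the other 3. Dmp1 was at 2.20 CPM in library 2 of day 3, against 0.372 to 0.497 CPM in the others. On day 5 Dmp1 was at 27.2 CPM in library 2, against 5.55 to 9.01 CPM, and on day 10 it was at 40.1 CPM, against 8.61 to 10.5 CPM. On the log2(CPM + 1) scale, 2 of the 4 exceeded the value, both of them Dmp1, on days 3 and 10. Day 1 has no library numbered 2, and what the number stands for was not tested.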

How the results depend on the processing

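Every direction of Ibsp, Spp1 and Dmp1 against day 1 on days 5 and 10 was the same under all alternatives tried. Library numbers did not pair the libraries by the criterion used, which asks for every same-numbered pair to have correlated deviations above 0.1. Of 21 such pairs 17 did (range -0.067 to 0.727, median 0.258), and the other 4 all involve day 10. Of 63 pairs of different number 12 did (median -0.094), and a library correlated best with its own number in 28 of 42 cases. This is a hint from the data that the number marks something shared, which the labels do not state. With the number as a replicate block, Ibsp for day 3 against day 1 turned to -0.45 and Spp1 for day 5 against day 3 (0.80) passed, and 1714 genes were called for day 5 against day 3 and 1507 for day 10 against day 5, against 1106 and 699 without it.

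Calls against day 1 changed as follows. Ibsp for day 5 against day 1 passed with a pseudocount of 0.25 (4.14), edgeR (8.42), DESeq2 (8.76), array weights (1.34), only the days compared (2.58), libraries 3 and 4 alone (1.02) and libraries 1 and 2 alone (4.12). For day 3 against day 1, Spp1 passed with array weights (0.36) and libraries 3 and 4 alone (0.38), and Dmp1 with DESeq2 (2.58). With libraries 1 and 2 alone, where day 1 is a single library assumed to vary like the other days, Spp1 and Dmp1 were no longer called for day 5 (1.15 and 3.62) or day 10 (1.03 and 3.86). Mepe passed limma without the filter for day 5 (0.94) and day 10 (1.34) against day 1.

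For day 5 against day 3, Ibsp passed with DESeq2 (5.45), array weights (1.26) and libraries 3 and 4 alone (0.97). Spp1 passed with DESeq2 (0.84), array weights (0.74), libraries 3 and 4 alone (0.73) and without the libraries numbered 2 (0.74). Dmp1 lost its call with libraries 3 and 4 averaged (2.77) and with libraries 1 and 2 alone (2.94). For day 10 against day 5, Ibsp lost its call without the filter (4.57), with only the days compared (4.57), with libraries 3 and 4 averaged (4.86) and with libraries 1 and 2 alone (5.39), and Spp1 passed with libraries 3 and 4 alone (0.82) and turned to -0.12 with libraries 1 and 2 alone. The step difference of Spp1 turned to 0.10 with libraries 3 and 4 alone and to 0.13 without library 2 of day 5. The cause of these changes was not tested.

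Counts of genes called moved by over 1.5 times with array weights (7989, 9224, 6445 and 4051 for day 3 against 1, 5 against 1, 5 against 3 and 10 against 5). With libraries 3 and 4 averaged they were 2491 (day 3 against 1), 27 (5 against 3) and 97 (10 against 5). With libraries 3 and 4 alone they were 2085 (5 against 3) and 1456 (10 against 5). With libraries 1 and 2 alone limma called 133 (day 3 against 1), 1375 (5 against 1), 1116 (10 against 1), 0 (5 against 3) and 14 (10 against 5). Without the filter they were 492 (5 against 3) and 452 (10 against 5), with DESeq2 1666 and 1338, and with only the days compared 136 (10 against 5).

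Leaving out each library in turn gave, for day 10 against day 1, 5.94 to 8.09 for Ibsp, 1.46 to 1.89 for Spp1, 3.2 to 3.89 for Dmp1 and 1.23 to 1.46 for Mepe, all on the log2 scale. For day 5 against day 1 the ranges were 1.85 to 3.12 (Ibsp), 0.98 to 1.54 (Spp1), 2.87 to 3.57 (Dmp1) and 0.74 to 1.15 (Mepe). For day 3 against day 1 they were 0.10 to 0.34, 0.23 to 0.74, 0.34 to 0.76 and 0.07 to 0.14 in the same order. For day 5 against day 3 they were 1.61 to 2.87, 0.51 to 1.03, 2.24 to 2.97 and 0.63 to 1.04, and Spp1 passed without library 2 of day 3. For day 10 against day 5 they were 3.36 to 5.51, 0.19 to 0.64, -0.12 to 0.82 and 0.20 to 0.61. Ibsp for day 5 against day 1 passed without library 2 of day 10 (adjusted p = 0.026, limma). Genes called ranged over 4807 to 6236 (day 10 against 1), 4891 to 6815 (5 against 1), 2595 to 4852 (3 against 1), 339 to 1791 (5 against 3) and 259 to 978 (10 against 5). The step difference of Spp1 ranged over -0.76 to 0.13, and that of Dmp1 passed without library 2 of day 10 (-2.80).

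Depth limits Mepe, which had 185 reads in all libraries together, and the day 1 levels of Ibsp and Dmp1, which rest on 1 and 7 reads.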
